A study of Mus musculus with 4 samples.

Results

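The Kruppel-like factors are zinc finger transcription factors, and 10 of their genes, *Klf2*, *Klf3*, *Klf4*, *Klf5*, *Klf6*, *Klf7*, *Klf9*, *Klf10*, *Klf11* and *Klf13*, were described in RNA-seq of NIH/3T3 cells, a line of mouse embryonic fibroblasts. The members were taken by gene symbol, which gave 10 of the 21945 genes and 15 of the 34200 transcripts that the authors tested. Cells were transfected with siRNAs against *Setd2*, which encodes the histone H3 lysine methyltransferase that marks transcribed gene bodies (KD), or with Scrambled siRNA (WT), both at 10 nM, and polyadenylated RNA was taken 48 h later. There were 2 KD and 2 WT libraries, and all 4 came from the same cell line and the same transfection reagent. A knockdown by siRNA lowers the transcript without removing the gene. Each of the values used here is the authors' mean or variance over all 4 libraries, KD and WT together, so that levels of single libraries and a test of KD against WT are not reported.

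Members of the family bind GC-rich and CACCC sequences through 3 C2H2 zinc fingers at the carboxyl end of the protein, while the amino-terminal part differs between members and recruits cofactors. By these cofactors the family is sorted into a group that binds the corepressor CtBP (*Klf3* here), a group that binds acetyltransferases and contains mostly activators (*Klf2*, *Klf4*, *Klf5*, *Klf6* and *Klf7*) and a group that binds the corepressor Sin3a (*Klf9*, *Klf10*, *Klf11* and *Klf13*). Several members are immediate early or hormone-induced genes with short-lived transcripts, and in fibroblasts *Klf4* is best known as one of the factors used for reprogramming to pluripotency.

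All 10 main transcripts, defined as the tested transcript of a gene with the highest level, encode 3 fingers, found by pattern in the translated coding sequence, and the finger region spans 81 residues in each. The coding sequence around the linker of the first and the second finger is shown for 9 members. This short stretch shows how alike the members are in the coding sequence of this linker, not over the whole transcript. Capitals mark bases that differ from the commonest base of these 9 members at that position.
Klf2: cacacaggtgagaagccttaTCaTtgc
Klf3: caTacaggAgaAaagccGtacaaAtgc
Klf4: cacacaggCgagaaAccttacCactgT
Klf5: caTacGggCgagaagccCtacaaGtgc
Klf6: cacacaggAgaAaagccttacaGAtgc
Klf7: cacacaggtgagaagccttacaaGtgc
Klf9: caTacaggtgaACGgccCtTTCCctgc
Klf11: cacacaggGgagaagccttTTaCctgc
Klf13: cacacaggtgagaGgccttTcGCctgc

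The 9 stretches of 27 bases were all distinct, and the number of bases unlike the commonest one ran from 1 in *Klf7* to 9 in *Klf9*. The amino acid core typical of this linker was encoded by 7 of these 9 members and not by *Klf9* and *Klf13*, both of the Sin3a-binding group. Over the whole finger region, proteins of the same group shared a median of 80.2% of residues (71.6% to 95.1%, 16 pairs), and proteins of different groups a median of 66.7% (60.5% to 86.4%, 29 pairs). The groups were not all separated by their fingers: Klf3, of the CtBP-binding group, shared 80.2% to 86.4% with the 5 acetyltransferase-binding members and 65.4% to 67.9% with the 4 Sin3a-binding members. The closest pair was Klf6 and Klf7 with 95.1%, followed by Klf2 and Klf4 with 91.4%, and the least alike was Klf6 and Klf9 with 60.5%. Kallisto assigns reads by runs of bases, 31 long unless set otherwise, and of the tested transcripts only that of *Klf13* shared such runs with another Kruppel-like factor gene in the annotation, namely 4 with *Klf3*, 2 with *Klf12* and 1 with *Klf10*, out of 6364.

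The levels of the 10 genes were compared as normalised estimated counts per kilobase of transcript, added up for each gene over its tested transcripts. They spanned a 20.1-fold range and summed to 7184, and 8 of 10 lay above the median gene, which stood at 127. *Klf4*, *Klf6* and *Klf3* together held 65.9% of the summed level.

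**Figure D1:**
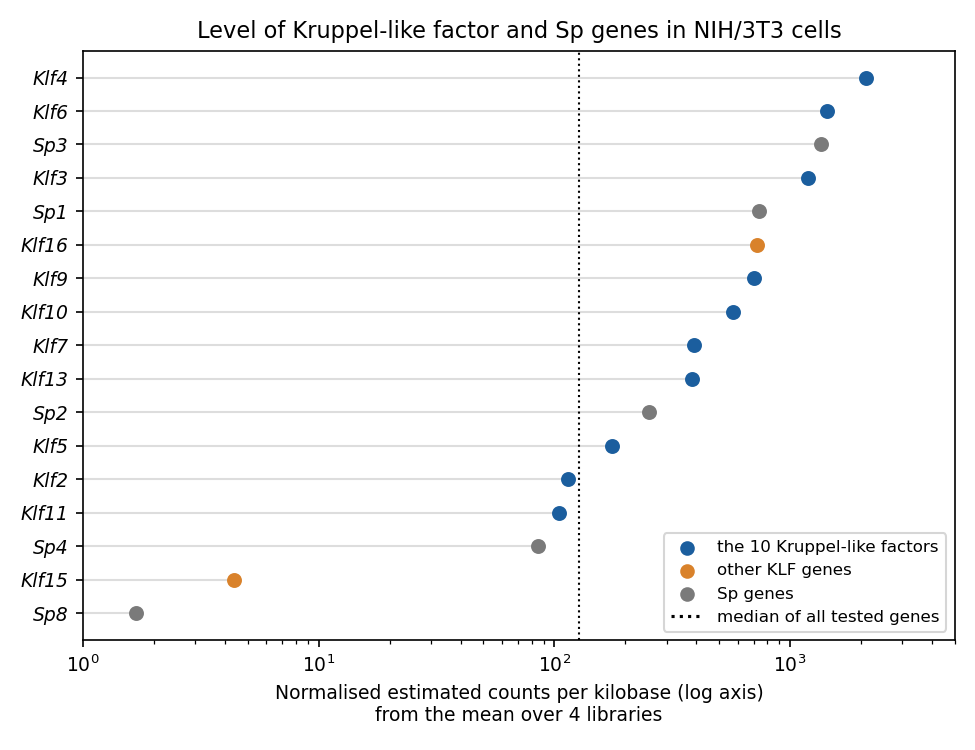
Level of the 10 Kruppel-like factor genes, *Klf15*, *Klf16* and 5 Sp genes in normalised estimated counts per kilobase of transcript (log axis). Levels are from the authors' mean over the 4 libraries, KD and WT together. Colours mark the 10 members, the other Kruppel-like factor genes and the Sp genes, and the dotted line is the median of all tested genes. Of the 10 members, *Klf4* is highest at 2103 and *Klf11* lowest at 105.

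Of the acetyltransferase-binding group, which held 58.8% of the summed level, *Klf4* and *Klf6* were the most abundant. *Klf4* (ENSMUSG00000003032.8) had a level of 2103 per kilobase, above 89.8% of all genes. Its only tested transcript lies on chromosome 4 at 55527143 to 55532466 on the minus strand of GRCm38 and has 5 exons. *Klf6* (ENSMUSG00000000078.7), which is expressed in many tissues and acts as a growth suppressor, followed at 1442 per kilobase (percentile 85.4), from 1 transcript of 4 exons on chromosome 13 at 5861482 to 5870394.

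*Klf7* (ENSMUSG00000025959.13, chromosome 1, main transcript at 64029447 to 64121491 on the minus strand), known for its role in axon growth, had a level of 392 per kilobase. *Klf5* (ENSMUSG00000005148.8, chromosome 14, 99298691 to 99315036), a regulator of proliferation in epithelia, stood at 176 per kilobase. *Klf2* (ENSMUSG00000055148.7, chromosome 8, 72319033 to 72321656), best known from endothelium, stood at 114 per kilobase and was one of the 2 members below the median gene. The pairs with the most similar fingers lay far apart in level, *Klf4* above *Klf2* and *Klf6* above *Klf7*.

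*Klf3* (ENSMUSG00000029178.14, chromosome 5, main transcript at 64803388 to 64832901), the CtBP-binding repressor, had a level of 1192 per kilobase (percentile 82.5) and so held 16.6% of the summed level on its own. The other CtBP-binding genes of the family, *Klf8* and *Klf12*, had no tested transcript.

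The Sin3a-binding group held 24.6% of the summed level. *Klf9* (ENSMUSG00000033863.1, chromosome 19, 23141226 to 23168134), induced by glucocorticoid and thyroid hormone in many cell types, was its highest member at 703 per kilobase (percentile 73.7). *Klf10* (ENSMUSG00000037465.10, chromosome 15, main transcript at 38294413 to 38300706 on the minus strand), an early response gene of TGF-beta, followed at 575 per kilobase. *Klf13* (ENSMUSG00000052040.10, chromosome 7, 63886351 to 63938915 on the minus strand), first studied in T cells, stood at 383 per kilobase. *Klf11* (ENSMUSG00000020653.12, chromosome 12, 24651274 to 24662789), the other TGF-beta early response gene of the family, was the lowest of the 10 at 105 per kilobase.

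Neighbours in the order of levels were set against their combined spread, computed from the variances of their main transcripts over the 4 libraries. *Klf6* and *Klf3* (1.21-fold apart), *Klf7* and *Klf13* (1.02-fold) and *Klf2* and *Klf11* (1.09-fold) did not differ beyond it. The other neighbours lay farther apart than their combined spread, and the largest step, 2.18-fold, separated *Klf13* from *Klf5*. In bulk samples fewer cells with a transcript and less of it per cell cannot be told apart, so these levels are averages over the culture.

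Of the 10 genes, 6 had a single tested transcript and 4 had several. In *Klf5*, *Klf7* and *Klf10* the main isoform held over 90% of the level per kilobase, at 97.9% (Klf5-201), 92.4% (Klf7-202) and 92.9% (Klf10-201). In *Klf3* it held 82.4% (Klf3-201). The isoforms differed in what they encode: the second isoform of *Klf3* keeps the whole coding sequence, whereas those of *Klf5* and *Klf7* end inside an intron and lose fingers.

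Klf5-202 (chromosome 14, 99299154 to 99305326) runs on for 1849 bases past the end of exon 3 into an intron of 9673 bases and stops 9710 bases upstream of the end of the main transcript. Klf7-201 (chromosome 1, 64041926 to 64121482) runs on for 388 bases past the end of exon 3 into an intron of 6549 bases and stops 12479 bases upstream. In the annotation, Klf5-202 encodes 1 complete finger in place of 3, and Klf7-201 encodes 2. The forms also differ at the 5′ end, with exons numbered as in the main transcript. Klf5-202 starts 463 bases downstream of the main transcript, its coding part begins in exon 2, and it encodes 309 residues beside 446. In Klf7-201 an intron splits what is exon 1 of the main transcript. The sequences around the end of exon 3, at position 99303477 for *Klf5* and 64042314 for *Klf7*, show where the isoforms part towards the 3′ end. The 30 bases in lower case belong to exon 3 in both forms, and the 30 bases in capitals are the start of exon 4 in the spliced form and of the intron in the extended form.
Klf5 spliced: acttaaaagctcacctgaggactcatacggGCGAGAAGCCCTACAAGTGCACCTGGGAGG
Klf5 extended: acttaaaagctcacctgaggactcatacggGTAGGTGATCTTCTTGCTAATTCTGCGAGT
Klf7 spliced: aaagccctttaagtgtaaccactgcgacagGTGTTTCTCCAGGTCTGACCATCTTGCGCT
Klf7 extended: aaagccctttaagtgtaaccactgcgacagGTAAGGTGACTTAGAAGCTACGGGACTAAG

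In both genes the intron opens with GT, the usual first bases of a splice donor, and in *Klf5* the junction falls within the linker shown above. The extended isoforms were rare. Klf5-202 had a level of 3.66 per kilobase from 10.4 estimated counts, 2.08% of the gene, and Klf7-201 had 29.8 per kilobase from 44.0 estimated counts, 7.60% of the gene. The part of their runs of 31 bases that no other tested transcript of the same gene holds was 65.5% for Klf5-202 and 28.7% for Klf7-201. These are the runs that tell the isoforms from the spliced ones. RNA that had not yet been spliced can hold the same bases, and its part in these levels was not tested.

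**Figure D2:**
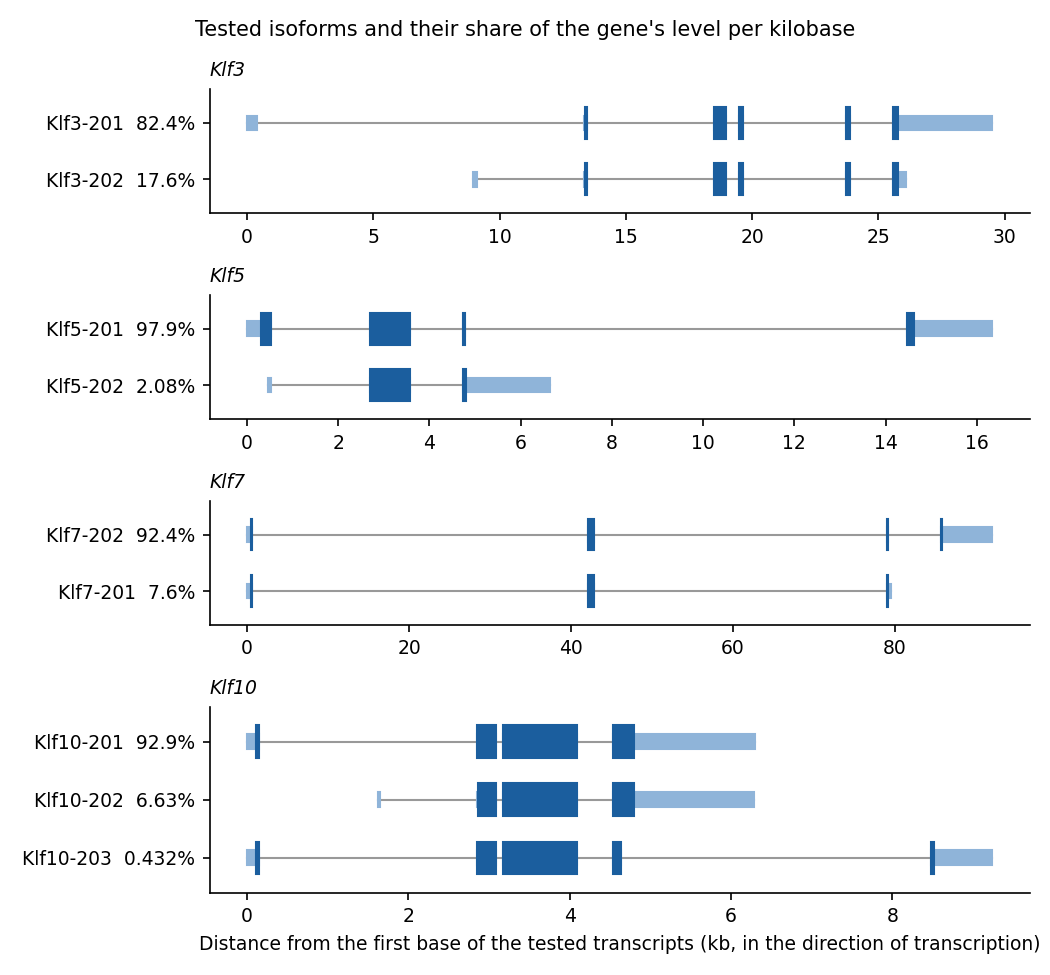
Exons of the tested isoforms of *Klf3*, *Klf5*, *Klf7* and *Klf10*, drawn 5′ to 3′ in kb from the first base of the tested transcripts with coding parts dark and tall, beside the share of the level of the gene that each isoform holds. Klf5-202 and Klf7-201 end within an intron and hold 2.08% and 7.60%.

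Klf3-202 (chromosome 5, 64812339 to 64829482) starts 8951 bases downstream of the main transcript and ends 3419 bases upstream of its end, within the last exon. It encodes the same number of residues, 344, as the main transcript. Its level was 209.8 per kilobase, 17.6% of the gene, but only 10.6% of its runs of 31 bases are its own. By estimated counts, without division by length, Klf3-201 held 94.0% of the gene, since the main transcript is 5221 bases long and Klf3-202 is 1562 bases long.

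*Klf10* had 3 tested isoforms. Klf10-202 starts 1624 bases downstream of the main transcript, encodes 464 residues beside 479 and held 6.63% of the gene at 38.1 per kilobase. Klf10-203 has another last exon, ends 2950 bases downstream of the main transcript, encodes 2 fingers and held 0.432% at 2.48 per kilobase. Of the runs of 31 bases in Klf10-201 only 0.0995%, and of those in Klf10-202 only 0.797%, occur in no other tested transcript of the gene. Runs that only some of the isoforms share also help to tell them apart and are not in these shares. Exon 1 of Klf10-201, for example, is held by Klf10-203 but not by Klf10-202. The authors' technical variance comes from repeated estimates on resampled reads, so it reflects the number of reads as well as their assignment to transcripts. It was 0.00104 for Klf10-201, 0.245 for Klf10-202 and 0.806 for Klf10-203 on the natural log scale.

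The variance of a transcript over the 4 libraries holds both any difference between KD and WT and the spread between libraries of a group, which cannot be told apart here. It does set an upper limit to the difference between the observed means of these libraries. If the deposited variance is the sum of squared deviations over the 4 libraries divided by 3, as the name of the column implies and as could not be checked without single libraries, then with 2 libraries in each group the means of KD and WT lie no farther apart than the square root of 3 times the variance, whatever the direction. All limits given here rest on this reading. The limit says nothing about whether a difference exists, and it holds on the scale of the log of the normalised estimated counts plus 0.5. It does not bound the effect of the knockdown: with 2 libraries in each group, a true change could be larger than the limit.

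By this measure the main transcripts formed a lower and an upper set. *Klf4*, *Klf5*, *Klf10* and *Klf13* had variances of 0.00213 to 0.00332 on the natural log scale. The variances of *Klf2*, *Klf3*, *Klf6*, *Klf7*, *Klf9* and *Klf11* were 0.0157 to 0.0280. Members of the acetyltransferase-binding and the Sin3a-binding group were found in both sets, and so were high and low levels: *Klf4* and *Klf6*, the most abundant members, had variances of 0.00332 and 0.0280.

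**Figure D3:**
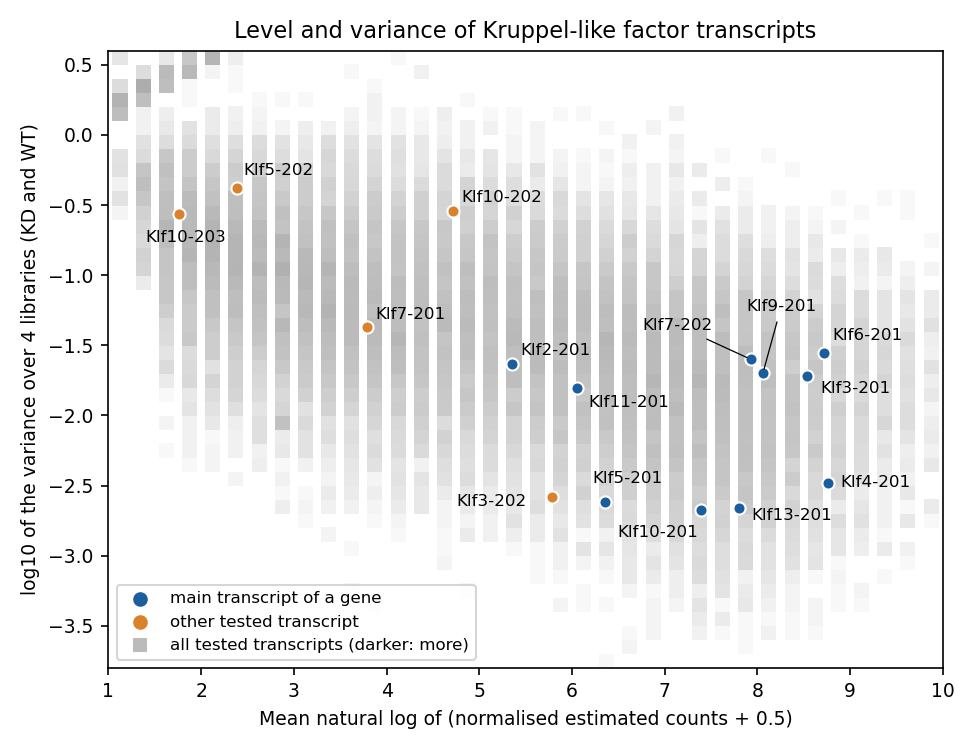
Variance over the 4 libraries (log10 axis) against the mean natural log of normalised estimated counts plus 0.5 for the 15 Kruppel-like factor transcripts, over the density of all 34200 tested transcripts in grey. *Klf4*, *Klf5*, *Klf10* and *Klf13* lie at 0.00213 to 0.00332, below the 6 other main transcripts.

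Among the activators, the variance of *Klf4* allowed a difference between KD and WT of at most 0.14 on the log2 scale, or 1.10-fold, and that of *Klf5* at most 0.12, or 1.09-fold. *Klf6* had the highest limit of all main transcripts at 0.42, or 1.34-fold. The limits were 1.32-fold for *Klf7* and 1.30-fold for *Klf2*. A difference of 1.2-fold between the observed group means was thus above the limit for the main transcripts of *Klf4* and *Klf5*. It was below the limit for *Klf6*, *Klf7* and *Klf2*.

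For the CtBP-binding *Klf3* the limit was 0.34 on the log2 scale, or 1.27-fold. Of the Sin3a-binding genes, *Klf10* and *Klf13* had limits of 0.12, or 1.08-fold, the lowest of the 10. The limits of *Klf9* and *Klf11* were 1.28-fold and 1.24-fold.

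All 10 main transcripts had a limit under 1.5-fold, beside 83.2% of the 9381 genes whose main transcript lay in the same range of counts and 60.3% of all genes. A limit under 1.2-fold was found for 4 of 10, or 40.0%, beside 40.2% of the genes in that range. The median limit of the members was 1.26-fold and that of the genes in the range 1.24-fold.

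Tested transcripts were also ranked by variance within 20 classes of equal size by mean count. *Klf5* stood at percentile 5.70, *Klf10* at 9.91, *Klf13* at 10.0 and *Klf4* at 13.5, so that most transcripts of like abundance varied more. *Klf2* and *Klf11* stood at 32.0 and 32.8. *Klf3*, *Klf9*, *Klf6* and *Klf7* lay in the upper part of their classes, at 60.7, 61.4, 68.0 and 68.0. The median percentile of the 10 main transcripts was 32.4, beside 42.7 for the main transcripts of all genes, and 4 of 10 lay in the upper part of their class, beside 42.3% of those of all genes. The classes also hold the other isoforms of each gene.

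The technical variance made up very different parts of the total. It was 0.689% of the variance of *Klf6*, 1.05% of that of Klf3-201, 1.24% of that of Klf7-202 and 1.44% of that of *Klf9*, so that nearly all the variance of these transcripts lay between libraries. For Klf5-201 it was 70.4% and for Klf10-201 48.9%. *Klf4* differed from these in having a low variance with a small technical part of 4.33%. The technical variance also depends on the number of reads. In genes with 1 tested transcript it ran from 0.00480 for *Klf2* at 211 estimated counts to 1.44e-04 for *Klf4* at 6370.5.

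**Figure D4:**
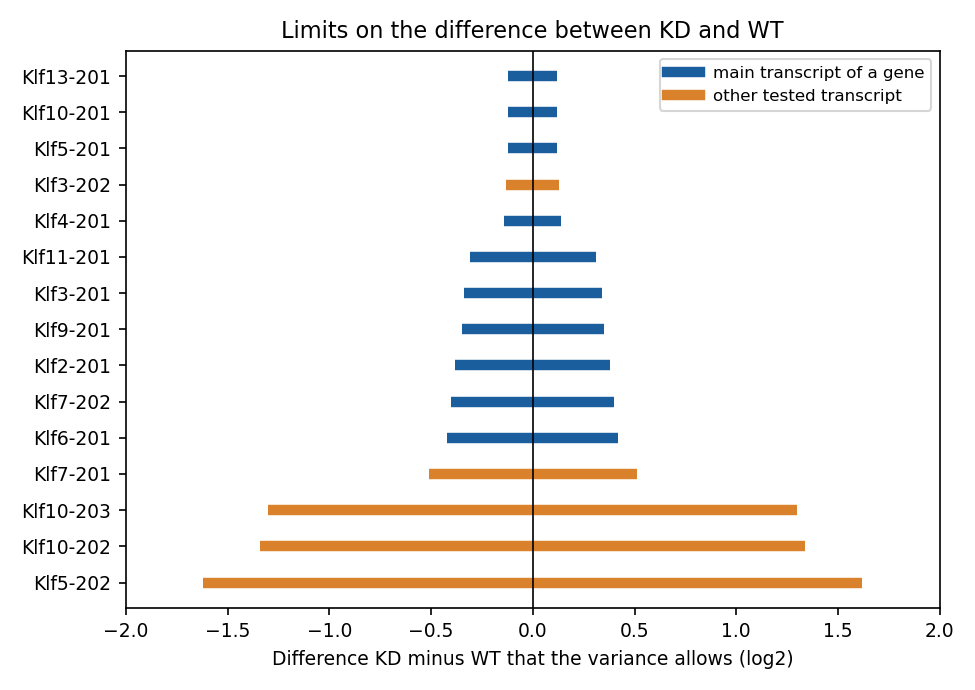
Upper limit on the size of the difference between the observed means of KD and WT (log2 scale) for each of the 15 Kruppel-like factor transcripts. It was taken from the variance over the 4 libraries, with no direction and no test. The limits of the 10 main transcripts lie between 0.12 and 0.42, and those of the 5 other isoforms between 0.13 and 1.62.

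The other isoforms had wider limits, except Klf3-202 with 0.13 on the log2 scale, or 1.09-fold. The limit was 1.43-fold for Klf7-201, 2.47-fold for Klf10-203, 2.54-fold for Klf10-202 and 3.07-fold for Klf5-202. The technical variance was 59.9% to 297% of the total variance of these 5 isoforms, and it exceeded the total for Klf3-202, Klf7-201 and Klf10-203. For Klf3-202 it was 0.00491 beside a total of 0.00261, so the narrow limit of this isoform is not a sign of a precise estimate. Changes of these isoforms of *Klf5* and *Klf10* below such limits were not resolved by the values used here.

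Transcripts of other genes that hold the same bases limit some of these values. Of the runs of 31 bases in Klf7-202, 41.2% also occur in *Gm26649*, a long non-coding RNA annotated on the opposite strand that had no tested transcript. Klf3-201 shares 7.22% with *Gm20033*, also on the opposite strand, which was tested. On the same strand, Klf5-201 shares 2.23% with *Gm6007* and the *Klf4* transcript shares 1.93% with *Gm48640*. Neither *Gm6007* nor *Gm48640* had a tested transcript. The library kit keeps the strand, but whether the quantification used it is not given in the sources used here.

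Of the 7 other mouse Kruppel-like factor genes looked for, only *Klf16* and *Klf15* had a tested transcript. *Klf16*, of the Sin3a-binding group, had a level of 721 per kilobase, next to *Klf9*, with a limit of 1.13-fold. *Klf15* stood at 4.36 per kilobase, far below *Klf11*. *Klf1*, *Klf8*, *Klf12*, *Klf14* and *Klf17* had no tested transcript. Of 9 genes of the related Sp family, which bind GC boxes through like fingers, 5 were tested, and *Sp3* at 1350.4 and *Sp1* at 738 per kilobase lay within the range of levels of the 10 members, *Sp3* between *Klf6* and *Klf3* and *Sp1* between *Klf3* and *Klf9*. *Sp2*, *Sp4* and *Sp8* had levels of 251, 85.6 and 1.67 per kilobase.

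RefSeq promoters of GRCm38.p6, from 250 bases before to 50 bases after the start of the gene, were matched for 8 of 10 members, all but *Klf5* and *Klf10*. They had a median GC content of 70.7% (58.3% to 77.7%), beside 52.7% over all 32851 promoters of the table. The ratio of observed to expected CpG was 0.87 beside 0.38. The GC box GGGCGG, looked for on both strands with overlaps to other motifs allowed, occurred in 7 of 8, with *Klf9* as the exception, and in 35.7% of all promoters. CACCC, the core of the sequence that the family itself binds, occurred in 5 of 8 and in 57.5% of all promoters. TATAAA occurred in 0 of 8 and in 8.32% of all promoters. These matches describe the letters in the window and are not evidence of binding. The 32851 promoters, of 27025 genes, were not limited to tested genes, so the members were not compared with tested genes in general.

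For the series as a whole, all 8 fibroblast markers were tested, at 570.1 to 68589 per kilobase. Of the markers of other cells, 3 of 3 endothelial genes stood at 7.73 to 9.24, 2 of 4 epithelial genes at 25.4 and 138, 2 of 3 blood genes at 6.40 and 287, and 1 of 3 muscle genes at 48.3. The targeted gene, *Setd2*, had a mean of 221 per kilobase and a variance of 0.638, higher than that of 99.8% of transcripts of like abundance. This variance allowed a difference of at most 3.99-fold, and the knockdown itself was not checked in single libraries.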

How the data were processed

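RNA-seq of 2 KD and 2 WT libraries of NIH/3T3 cells was used, grouped by the labels. The authors quantified transcripts with Kallisto and compared the groups with Sleuth, and the submitters' processing notes also name bcl2fastq 2.17 and HISAT2. The deposited means are on the natural log scale, namely the authors' mean over the 4 libraries of ln(normalised estimated counts + 0.5). The deposited table also holds the authors' variance over the 4 libraries and their technical variance, from repeated estimates on resampled reads. Its columns of fold changes, p-values and q-values of the authors' own comparison, and the gene table with its p-values, were not used. No column used holds a single library, so the planned comparison of KD with WT could not be run, and the depth of each library is unknown. Whether the libraries came from separate cultures is not stated in the labels.

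Levels were computed as the exponential of the mean minus 0.5, divided by the transcript length in GENCODE M21 (GRCm38), and added up for each gene over its tested transcripts. All identifiers matched (100.0%), 98.6% with the same version, and *Klf9* took the length of the next version. A minimum on low values was set by the authors and is not given in the sources used here; all 10 genes had passed it. The limit on the difference between KD and WT was devised after the columns were seen and takes the variance as the sum of squares over 4 libraries divided by 3, a form that could not be checked on the files. Only the arithmetic of the limit was tested on simulated data. Fingers were found in translated GENCODE coding sequences, since no protein table was used; 1 linker sequence is not reported here. Every member with all its tested transcripts was named, and of the other lists any tested gene could be. The members and lists were chosen with earlier results of these data known. Scripts used Python 3.11.15, pandas 2.3.3 and numpy 2.4.6. Alternatives were a minimum of 10 estimated counts, protein-coding transcripts alone, an arithmetic mean, a length shortened by 200 bases, shares by estimated counts, 10 classes, and the variance minus the technical variance.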

Additional observations from a re-analysis of the deposited data

How the results depend on the processing

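Of 76 values compared under the alternatives, 69 held and 7 moved, where a level or share moved if it changed by more than its spread between libraries, a count if it changed by over 1.5 times, and a percentile if it crossed the middle of its class. The order of the 10 genes by level was the same under each of the 4 alternatives for the level. With the length shortened by 200 bases the summed level of the 10 genes rose from 7184 to 7605 per kilobase, since a shorter length raises every level, and *Klf4*, *Klf5* and *Klf10* moved to 2252, 187 and 616 per kilobase. By estimated counts the main isoform of *Klf3* held 94.0% and that of *Klf7* 98.4%, which brings the number of genes whose main isoform holds at least 90% from 3 to 4. After the technical variance was subtracted, *Klf2* moved from percentile 32.0 to 51.2 of its class, which brings the number of main transcripts in the upper part of their class from 4 to 5 of 10. Without the subtraction 42.3% of the main transcripts of all genes lay in that part, and their share after it is not given here.

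No paired analysis was possible because the columns used carry no single library and so no replicate number. For the same reason the comparison of KD with WT was not run, nor were its alternatives, namely leaving out each library, another pseudocount and a filter on low counts. The depth of the libraries is unknown, and the precision of isoforms with few counts is limited by the number of reads and by their assignment.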

Other observations

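Each of 11 genes looked for, which encode cofactors of Kruppel-like factors or ubiquitin ligases that act on them, had a tested transcript. *Hdac1*, a histone deacetylase found in corepressor complexes, had the highest level at 4124 per kilobase, followed by *Sin3b* at 3355 and *Hdac2* at 3186. *Ctbp1*, the corepressor bound by the group of *Klf3*, stood at 2215 and its paralog *Ctbp2* at 729. *Sin3a*, which gives the group of *Klf9* its name, stood at 560.5. The acetyltransferases were lower, with *Ep300* at 348, *Kat2b* at 219 and *Crebbp* at 210.2 per kilobase. The ubiquitin ligase genes *Wwp1* and *Fbxw7*, whose products act on Klf5, stood at 412 and 239 per kilobase.

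Among the main transcripts of these genes, *Kat2b* had the largest variance over the 4 libraries, 0.226 on the natural log scale, at percentile 97.0 of its class. It allowed a difference between KD and WT of up to 2.28-fold, with no direction and no test. The limit was 1.61-fold for *Fbxw7* and 1.44-fold for *Ctbp1*, and 1.08-fold for *Hdac1*, the lowest of the 11.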
